A study of Mus musculus with 2 samples.

Results

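Foxp3/Ikzf2 T cells were the 369 of 3849 T cells in tumour-bearing mouse lung that carried a transcript of Foxp3, or of both Ikzf2 and Tnfrsf4. Each came from the CD45-positive library and carried the deposited class label Immune. It held at least 1 unique molecular identifier (UMI, the tag that counts 1 captured RNA molecule) of Cd3d, Cd3e or Cd3g and no more than 1 of Cd79a and Cd79b. It also held at least 1 UMI of Foxp3, or at least 2 of Ikzf2 together with at least 1 of Tnfrsf4. These cells were 9.59% of the T cells (exact binomial 95% interval 8.67 to 10.6) and 2.40% of the 15389 cells of the study. Regulatory T cells restrain other T cells and hold back immune attack on self and on tumours. Foxp3 encodes the transcription factor that fixes their identity, Ikzf2 encodes Helios, a partner factor, and Tnfrsf4 encodes the costimulatory receptor OX40. In tissues a portion of them carries ST2, the receptor for the alarm cytokine IL-33 encoded by Il1rl1, and makes amphiregulin (Areg), a growth factor of the EGF family linked to epithelial repair.

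The study, whose title concerns IL-33 signalling and regulatory T cell diversity in tumour development, profiled lung adenocarcinoma of C57BL/6 mice by droplet 3′ single-cell RNA sequencing. Tumours were cut out, dissociated and parted with magnetic beads into a CD45-positive library of 11432 cells and a CD45-negative library of 3957 cells. No genotype or treatment arm, tumour model or number of mice is given in the sources used here, and the cell names carry a tag (LucOS) that they do not explain. With 1 library per fraction there is no replicate: every comparison below sets cells of the CD45-positive library against other cells of it, intervals cover counting error only, and no p-value is given. The series design text names 6000 cells loaded per channel, fewer than the 11432 cells that the table holds for this library, and 57 barcodes occur in both libraries, 2 of them among the Foxp3/Ikzf2 T cells. The same rule found 0 cells among the 3 T cells of the CD45-negative library. Transcripts of other lineages were common: 97.3% of Foxp3/Ikzf2 T cells and 92.5% of conventional CD4 T cells held at least 3 UMI of markers of some other lineage, and the 8 alveolar type 2 cell markers summed to 1912 and 1868 CPM (the summed UMI of a group scaled to a total of 1000000).

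The choosing genes themselves are a description of the rule. Foxp3 was read in 193 cells, of which 154 held 1 UMI, 28 held 2, 10 held 3 and 1 held 4. The remaining 176 cells came in by Ikzf2 and Tnfrsf4 alone, and 70 of the 193 met both criteria. Just inside the rule were 61 of those 176 cells with exactly 2 UMI of Ikzf2, and just outside it lay 130 T cells with 1 UMI of Ikzf2 beside Tnfrsf4 and 133 with at least 2 of Ikzf2 but none of Tnfrsf4. A single Foxp3 molecule thus marked 154 of the 193 Foxp3-bearing cells. Among 667 B cells, which should lack the programme, 1.95% met the same criterion (interval 1.04 to 3.31, median 3326 UMI per cell) and 10 of the 667 held a Foxp3 UMI. With every cell thinned to 2000 UMI, 5.59% of the T cells and 1.05% of the B cells met it. Taken apart, a Foxp3 UMI was read in 5.01% of the T cells, with an interval of 0.721 to 2.74% for the B cells. After thinning, 2.91% of the T cells and 5 of the 667 B cells held one. Ikzf2 with Tnfrsf4 was met by 6.39% of the T cells and 0.450% of the B cells. Foxp3 thus stood nearer to its B cell level. The part of such background in the 123 cells chosen by Foxp3 alone was not tested.

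Of the 4 markers Foxp3, Ikzf2, Tnfrsf4 and Ctla4, 56 cells carried all, 173 carried 3, 125 carried 2 and 15 carried 1; since 3 of the 4 are the choosing genes, this tally describes the rule and is no check of the label. Ctla4, a receptor that competes with CD28 and the one marker that the rule did not use, stood at 283 CPM in Foxp3/Ikzf2 T cells, against 107 CPM in conventional CD4 T cells. Against the label, 40.1% of the cells held a UMI of Cd8a or Cd8b1, the chains of the CD8 coreceptor, while 23.3% held one of Cd4. In all other T cells those shares were 45.7% for Cd8a or Cd8b1 and 10.1% for Cd4, and in B cells 11.2% and 4.05%. The Cd8 share was 32.6% in cells with a Foxp3 UMI and 48.3% in cells chosen by Ikzf2 and Tnfrsf4 alone. The group is for this reason called by its rule, and results are given for both kinds of cell.

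The start regions of 3 genes that the results turn on are shown for reference: Foxp3, which chose the cells, Il1rl1, the IL-33 receptor gene, and Areg. The gene bodies lie at chrX:7573644-7595245 (Foxp3), chr1:40429570-40465415 (Il1rl1) and chr5:91139599-91148432 (Areg), all protein-coding and on the plus strand (GENCODE annotation of GRCm38, the assembly also called mm10). Each window runs from 250 bases before to 50 after a RefSeq start site on GRCm38.p6, and Foxp3 and Il1rl1 have a pair of such sites. Capitals mark matches, on either strand, to 4 motifs searched, which did not overlap: the AP-1 site TGANTCA, the cAMP response element TGACGTCA, the GATA factor site AGATAA and the RUNX site TGTGGT.
Foxp3, chrX:7579426-7579725: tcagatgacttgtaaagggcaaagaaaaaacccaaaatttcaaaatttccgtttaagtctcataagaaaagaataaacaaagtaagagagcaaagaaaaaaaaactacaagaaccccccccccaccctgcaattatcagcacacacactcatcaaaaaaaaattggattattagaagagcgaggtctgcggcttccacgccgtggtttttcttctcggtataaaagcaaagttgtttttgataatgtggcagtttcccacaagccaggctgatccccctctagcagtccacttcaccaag
Foxp3, chrX:7580233-7580532: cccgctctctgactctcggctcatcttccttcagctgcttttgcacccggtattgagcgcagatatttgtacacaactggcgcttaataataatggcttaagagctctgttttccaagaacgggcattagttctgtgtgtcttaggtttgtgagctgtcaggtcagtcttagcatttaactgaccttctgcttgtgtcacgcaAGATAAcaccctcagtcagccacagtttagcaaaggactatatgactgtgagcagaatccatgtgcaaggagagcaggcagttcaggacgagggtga
Il1rl1, chr1:40429320-40429619: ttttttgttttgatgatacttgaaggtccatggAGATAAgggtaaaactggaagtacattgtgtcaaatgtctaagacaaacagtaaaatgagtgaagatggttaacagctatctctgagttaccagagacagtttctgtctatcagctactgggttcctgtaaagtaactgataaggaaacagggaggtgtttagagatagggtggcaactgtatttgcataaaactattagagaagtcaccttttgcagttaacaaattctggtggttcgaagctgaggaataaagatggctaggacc
Il1rl1, chr1:40439379-40439678: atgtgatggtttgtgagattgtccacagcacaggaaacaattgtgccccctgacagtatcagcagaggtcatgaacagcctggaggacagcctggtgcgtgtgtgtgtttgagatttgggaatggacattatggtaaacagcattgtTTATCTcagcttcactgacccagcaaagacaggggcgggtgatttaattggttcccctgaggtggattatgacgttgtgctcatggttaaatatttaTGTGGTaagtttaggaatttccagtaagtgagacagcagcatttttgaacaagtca
Areg, chr5:91139349-91139648: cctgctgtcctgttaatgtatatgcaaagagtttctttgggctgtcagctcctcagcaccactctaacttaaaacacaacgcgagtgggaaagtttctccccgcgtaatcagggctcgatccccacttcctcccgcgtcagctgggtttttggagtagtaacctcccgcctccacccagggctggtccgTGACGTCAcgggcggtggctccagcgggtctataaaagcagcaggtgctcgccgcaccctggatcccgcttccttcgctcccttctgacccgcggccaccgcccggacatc
The GATA letters occurred once in the downstream Foxp3 window and once in each Il1rl1 window, the RUNX letters once in the downstream Il1rl1 window, and the cAMP response element once in the Areg window. Of 32851 RefSeq windows of this length, 11.2% held the GATA letters, 16.8% the RUNX letters, 7.81% the AP-1 letters and 1.79% the cAMP response element. Among the 210 windows of the 159 matched genes that were at least 2-fold higher in Foxp3/Ikzf2 T cells than in conventional CD4 T cells, the shares were 6.19%, 14.8%, 7.14% and 3.33%, beside 6.30%, 12.9%, 5.04% and 3.48% of the windows of all tested genes. The 3′ reads do not tell which start site was used.

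Set against conventional CD4 T cells, the Foxp3/Ikzf2 T cells carried more of the receptor genes Il2ra, Tnfrsf9, Tnfrsf18 and Ctla4 and of the secreted mediator genes Penk, Tff1 and Areg. Of 39 transcription factor genes tested, 4 were at least 2-fold higher (Ikzf4, Batf, Prdm1 and Tox) and 1 was lower (Tcf7), with a median log2 ratio of 0.33. Conventional CD4 T cells were the 240 T cells that missed the rule and held a Cd4 UMI and none of Cd8a or Cd8b1. Their median was 2944.5 UMI per cell, and that of the Foxp3/Ikzf2 T cells 3446. A Cd4 UMI was also read in 4.05% of B cells, beside 10.1% of all other T cells. The part of such background in the 240 cells was not tested. Gamma-delta T cell markers summed to 207 CPM in the 240 cells and 154 CPM in the Foxp3/Ikzf2 T cells. Of the 240 cells, 11.7% held at least 3 UMI of Ikzf2, Tnfrsf4 and Ctla4. Of 6148 genes with at least 30 UMI in the pair, 207 were at least 2-fold higher in Foxp3/Ikzf2 T cells (3.37% of those tested) and 112 at least 2-fold lower (1.82%). The genes of the rule were left out of these counts. The median log2 ratio over all tested genes was 0.05. The 20 genes with the most UMI outside ribosomal protein and mitochondrial genes, led by Tmsb4x, Malat1 and Actb, had ratios between 0.693 and 1.49.

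**Figure D1:**
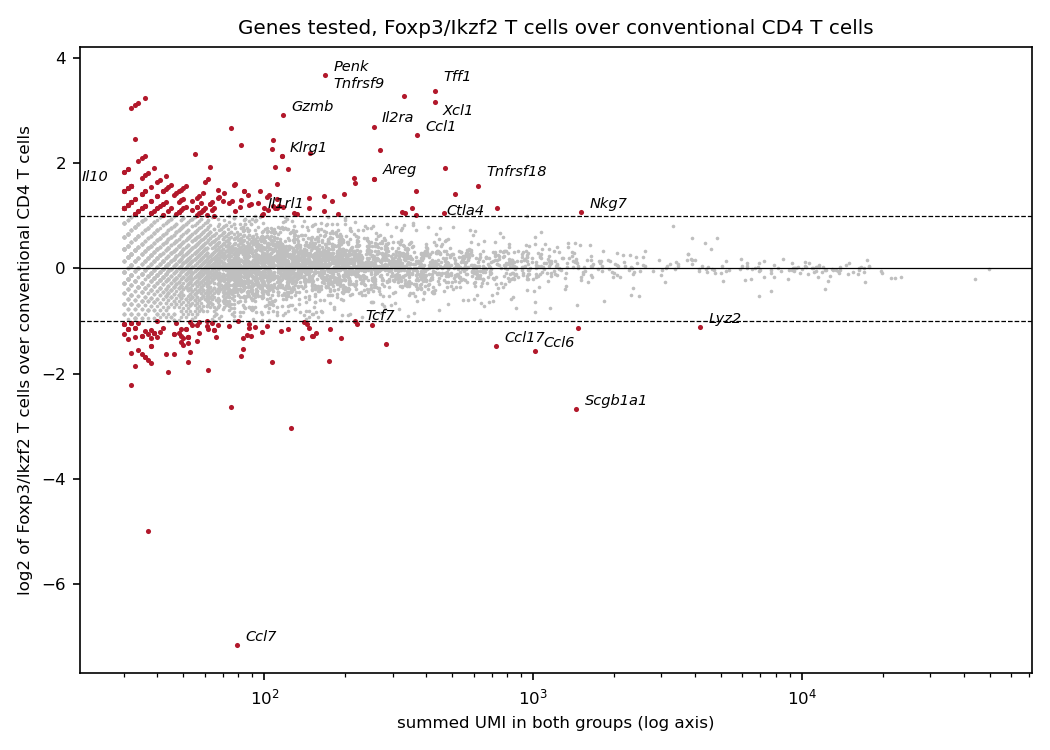
Each point is 1 of the 6148 genes tested, with summed UMI of both groups on a log axis and the log2 ratio of Foxp3/Ikzf2 T cells (369 cells) over conventional CD4 T cells (240 cells) on the vertical axis; dashed lines mark 2-fold and red points lie at or past it. Penk, Tff1, Tnfrsf9, Xcl1 and Gzmb stand highest among genes with over 100 UMI, and Ccl7, Scgb1a1 and Ccl6 lie among the lowest.

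Among identity genes, 7 of the 14 tested were at least 2-fold higher in Foxp3/Ikzf2 T cells and none lower, with a median log2 ratio of 1.12. Il2ra, the high-affinity chain of the IL-2 receptor on which these cells depend, had 235 UMI (157 CPM) in Foxp3/Ikzf2 T cells and 20 UMI (24.2 CPM) in conventional CD4 T cells, a ratio of 6.47 (95% interval 4.09 to 10.8). Ikzf4, encoding the Helios relative Eos, had 98 UMI (65.4 CPM) in Foxp3/Ikzf2 T cells and 10 UMI (12.1 CPM) in conventional CD4 T cells, a ratio of 5.39 (2.81 to 11.6). Both intervals lie wholly above 2. Tnfrsf18, the costimulatory receptor GITR, stood at 352 CPM against 119 CPM, 2.96-fold higher (2.38 to 3.71), and Ctla4 was 2.65-fold higher (2.10 to 3.37). Izumo1r, the folate receptor 4 gene, was 2.77-fold higher (2.10 to 3.71). Lrrc32, which displays latent TGF-beta on the cell surface, and Itgb8, a chain of an integrin that frees it, rested on few molecules in conventional CD4 T cells and had ratios of 3.71 (1.29 to 14.6) and 8.80 (2.25 to 75.8). The other members of the list did not reach 2-fold. They include the ectonucleotidase genes Entpd1 (CD39, 0.777) and Nt5e (CD73, 1.11) and Nrp1 (neuropilin 1), at 145 CPM in Foxp3/Ikzf2 T cells against 81.2 CPM in conventional CD4 T cells (ratio 1.79, 1.36 to 2.39).

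Of 17 secreted and suppressive mediator genes tested, 9 were at least 2-fold higher and none lower, with a median log2 ratio of 1.41. This list shares Ctla4, Itgb8, Entpd1 and Nt5e with the identity list. Penk, the opioid precursor proenkephalin, had 161 UMI (107 CPM) in Foxp3/Ikzf2 T cells and 7 UMI (8.49 CPM) in conventional CD4 T cells, a ratio of 12.7 (6.00 to 32.0). Tff1, a trefoil peptide best known from gastric mucus, had 410 UMI (274 CPM) in Foxp3/Ikzf2 T cells and 22 UMI (26.7 CPM) in conventional CD4 T cells, 10.3-fold higher (6.68 to 16.5). B cells held 10.5 CPM of Penk, so that conventional CD4 T cells lay at their level, and 7.24 CPM of Tff1. Tff1 was spread over cells: 33.1% of Foxp3/Ikzf2 T cells held a UMI of it, with at most 17 in 1 cell, beside 3.75% of conventional CD4 T cells and 2.40% of B cells; thinned to 2000 UMI the shares were 23.8%, 2.92% and 2.10%. Gzmb, the granule protease granzyme B, had 109 UMI (72.7 CPM) against 8 UMI (9.70 CPM), a ratio of 7.50 (3.67 to 17.8). Areg had 219 UMI (146 CPM) in Foxp3/Ikzf2 T cells and 37 UMI (44.9 CPM) in conventional CD4 T cells, a ratio of 3.26 (2.29 to 4.75). Il10, the anti-inflammatory cytokine, was sparse, with 27 UMI (18.0 CPM) against 5 UMI (6.06 CPM), and B cells held 10.1 CPM of it. Ebi3, a subunit of IL-27 and IL-35, was 3.74-fold higher on 34 against 5 UMI (1.46 to 12.3). Tgfb1 stood at 235 CPM against 159 CPM, a ratio of 1.48 (1.21 to 1.82).

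**Figure D2:**
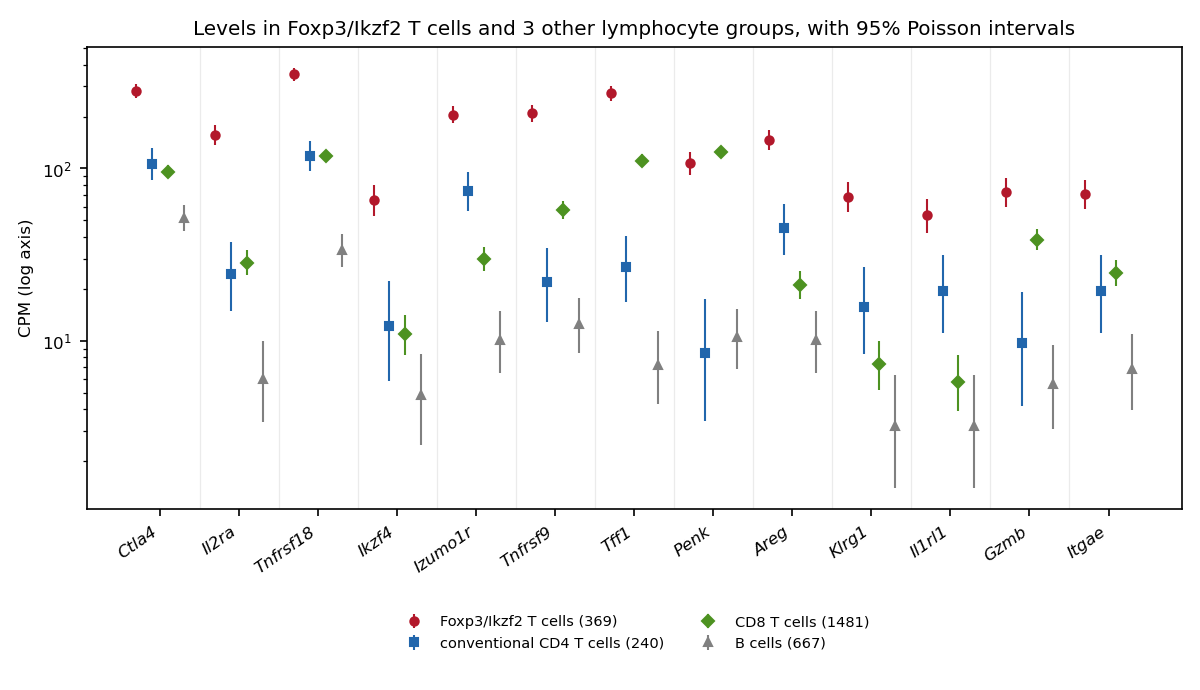
CPM on a log axis for 13 genes in Foxp3/Ikzf2 T cells, conventional CD4 T cells, CD8 T cells and B cells, left to right within each gene; bars are exact 95% Poisson intervals. The Foxp3/Ikzf2 T cells are the highest of the 4 groups for every gene shown except Penk, where CD8 T cells stand at 124 CPM.

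Of 24 genes of tissue-dwelling and effector regulatory T cells tested, 12 were at least 2-fold higher, none lower, with a median log2 ratio of 1.01. Several of them, among them Areg, Il10, Ebi3, Penk and Tff1, stand in the mediator list as well. Tnfrsf9, the activation receptor 4-1BB, had 314 UMI (209 CPM) in Foxp3/Ikzf2 T cells and 18 UMI (21.8 CPM) in conventional CD4 T cells, a ratio of 9.60 (5.97 to 16.4). Klrg1, an inhibitory lectin-like receptor of effector cells, stood at 68.7 CPM against 15.8 CPM, 4.36-fold higher (2.44 to 8.46). Itgae, the CD103 integrin chain that binds epithelial E-cadherin, was 3.68-fold higher (2.17 to 6.67), and Dusp4, a phosphatase that tempers MAP kinase signals, was 6.33-fold higher (2.76 to 17.8). The transcription factor genes Batf and Prdm1, both tied to effector differentiation, were 2.20-fold (1.69 to 2.90) and 2.15-fold higher (1.32 to 3.65). The Prdm1 ratio was 1.98 when at least 3 Cd3 UMI were asked of both groups. B cells held 63.5 CPM of Prdm1, above its level in Foxp3/Ikzf2 T cells. Gata3, Rora, Maf and Icos had ratios of 1.53, 1.24, 1.27 and 1.23 and did not reach 2-fold against conventional CD4 T cells. Itgav, the integrin chain that pairs with Itgb8, was 4.54-fold higher (2.69 to 8.17), at 88.1 CPM against 19.4 CPM.

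Of 11 cytotoxic genes tested, 6 were at least 2-fold higher in Foxp3/Ikzf2 T cells (Gzma, Gzmb, Nkg7, Klrd1, Klre1 and Cst7) and 1 was lower (Gzmk), with a median log2 ratio of 1.07. Conventional CD4 T cells held no Cd8a or Cd8b1 UMI by definition, while 40.1% of Foxp3/Ikzf2 T cells held one. In the 130 Foxp3-bearing cells without one, 1 of the 7 cytotoxic genes that still reached 30 UMI was higher, with a median log2 ratio of -0.01. Of 23 genes tested from the cytokine and chemokine list, 6 were higher (Il10, Ebi3, Areg, Penk, Ccl1 and Xcl1) and 2 lower (Il17f and Tnf). The list median was 0.14. That list did not hold Ccl2, Ccl6, Ccl7, Ccl9, Ccl17, Cxcl9 or Il18, which were each at least 2-fold lower. The Cxcl9 ratio of 0.161 was 0.399 without the deepest cells and 0.472 without the cells with the highest share of myeloid marker UMI. The Ccl9 ratio of 0.411 was 0.550 with Foxp3 UMI alone as the rule. With Foxp3 beside Ikzf2, Tnfrsf4 or Ctla4 the Ccl17 ratio was 0.504. The part of transcripts of other cell types in these 7 genes was not tested. Ccl17 stood at 193 CPM in Foxp3/Ikzf2 T cells against 533 CPM in conventional CD4 T cells (ratio 0.361, 0.310 to 0.420). Among TNF receptor and CD28 family genes, 4 of 21 were higher (Tnfrsf9, Tnfrsf18, Ctla4 and Tnfsf10) and 3 lower (Tnf, Cd40lg and Tnfsf11). Cd40lg, the helper T cell ligand that licenses B cells and dendritic cells, stood at 14.7 CPM in Foxp3/Ikzf2 T cells against 36.4 CPM in conventional CD4 T cells (ratio 0.404, 0.222 to 0.723). Tnf had 30 UMI in Foxp3/Ikzf2 T cells and 52 UMI in conventional CD4 T cells (ratio 0.317, 0.196 to 0.507), but a ratio of 0.967 when at least 3 Cd3 UMI were asked of both groups. Of 12 inhibitory receptor and Tox family genes 4 were higher (Ctla4, Lag3, Pdcd1 and Tox), with Pdcd1, the gene of PD-1, at 91.4 CPM against 35.2 CPM (ratio 2.60). Of 16 naive and recirculating genes none was higher and 3 were lower, with a median log2 ratio of -0.44: Tcf7 (ratio 0.480, 0.365 to 0.631), the factor of naive and memory T cells, S1pr1 (0.497), which guides exit from tissue, and Igfbp4 (0.311). Il17f, a cytokine of type 17 helper cells, was lower at 8.01 CPM against 24.2 CPM (ratio 0.330, 0.147 to 0.709).

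Of 28 cell cycle genes, 8 were at least 2-fold higher in Foxp3/Ikzf2 T cells than in conventional CD4 T cells and none lower, with a median log2 ratio of 0.57; 15 of 28 were higher than in CD8 T cells, with a median of 1.04. Mki67, a marker of cycling cells, stood at 59.4 CPM against 26.7 CPM in conventional CD4 T cells (ratio 2.23, 1.38 to 3.73), and Mcm6, a subunit of the replication helicase, at 64.0 CPM against 17.0 CPM (ratio 3.77, 2.14 to 7.16). A UMI of Mki67 or Top2a was found in 25.7% of Foxp3/Ikzf2 T cells, 17.5% of conventional CD4 T cells, 11.7% of CD8 T cells and 12.1% of B cells. After thinning to 2000 UMI, with the groups kept as chosen on full counts, those shares were 17.1%, 10.8%, 7.90% and 7.80%. The intervals of Foxp3/Ikzf2 and conventional CD4 T cells overlapped as deposited (21.4 to 30.5 and 12.9 to 22.9). They overlapped after thinning as well (13.4 to 21.3 and 7.20 to 15.5). No gene passed 2-fold among 24 interferon-stimulated, 20 immediate early, 18 glycolysis, 15 lipid, 24 cytoskeleton or 17 stress genes tested, and 2 of 33 T cell receptor signalling genes did (Dusp4 and Rgs16).

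**Figure D3:**
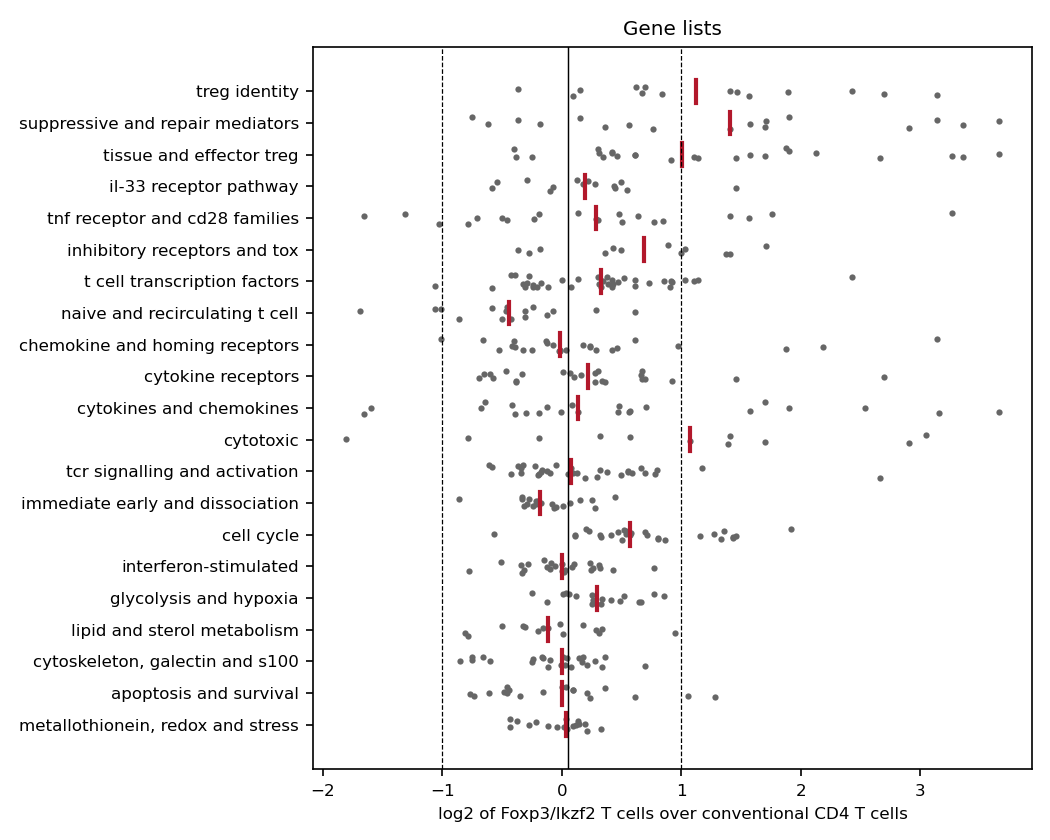
Each row is a gene list, each point a tested gene of it at its log2 ratio of Foxp3/Ikzf2 T cells over conventional CD4 T cells; red bars are list medians, the solid line is the median of all tested genes (0.05) and dashed lines mark 2-fold. The medians of the mediator (1.41), identity (1.12), cytotoxic (1.07) and tissue (1.01) lists lie past 2-fold, and that of the naive list lies at -0.44. In Foxp3-bearing cells without a Cd8a or Cd8b1 UMI, not drawn here, the cytotoxic median was -0.01 over the 7 genes tested there.

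The lowest genes in Foxp3/Ikzf2 T cells included transcripts of macrophages and airway cells. Lyz2, the macrophage lysozyme, stood at 1270 CPM in Foxp3/Ikzf2 T cells against 2749 CPM in conventional CD4 T cells (ratio 0.462), and Ccl6, a macrophage chemokine, at 258 CPM against 766 CPM (ratio 0.337). The Lyz2 ratio lay between 0.512 and 0.561 under 6 of the other settings. Scgb1a1, the club cell secretoglobin, stood at 214 CPM against 1365 CPM, but its ratio was 0.944 without the deepest cells. Ccl7, the lowest of all, had 1 against 78 UMI, 72 of them in a single conventional CD4 T cell. Over whole marker lists the 8 alveolar macrophage markers summed to 667 CPM in Foxp3/Ikzf2 T cells and 1506 CPM in conventional CD4 T cells, the 6 monocyte markers to 1720 and 3178 CPM, and the 6 club and ciliated markers to 268 and 1459 CPM. The part of such transcripts in the differences of these genes was not tested.

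Against CD8 T cells, the 1481 T cells that missed the rule with a Cd8a or Cd8b1 UMI and none of Cd4, Klrg1, Il1rl1, Izumo1r and Areg had the highest lower bounds of the ratio among genes tested. Of 9122 genes tested, 242 were at least 2-fold higher in Foxp3/Ikzf2 T cells (2.65%) and 347 at least 2-fold lower (3.80%). With mitochondrial and ribosomal protein genes left out of the totals the counts were 178 and 446 of 9009. The median share of ribosomal protein UMI per cell was 31.8% in Foxp3/Ikzf2 T cells and 35.3% in CD8 T cells. Klrg1 was 9.40-fold higher (6.42 to 14.0) and Il1rl1 9.25-fold higher (6.01 to 14.6). Areg was 6.91-fold higher (5.47 to 8.77), Izumo1r 6.83-fold (5.61 to 8.33), Ikzf4 5.96-fold (4.26 to 8.42) and Il2ra 5.51-fold (4.47 to 6.81). The identity list had 8 of 14 genes higher and the mediator list 7 of 17, none lower in either, with median log2 ratios of 1.47 and 0.46. The tissue list had 16 of 25 genes higher and none lower, with a median of 1.12, now with Maf (3.16-fold), Rora (2.33-fold), Gata3 (2.24-fold), Ccr2 (2.17-fold) and Icos (2.06-fold), which had not passed 2-fold against conventional CD4 T cells.

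Some genes that set Foxp3/Ikzf2 T cells apart from conventional CD4 T cells were as high or higher in CD8 T cells. Penk stood at 107 CPM in Foxp3/Ikzf2 T cells and 124 CPM in CD8 T cells, a ratio of 0.867 (0.725 to 1.03). Lag3, an inhibitory receptor for MHC class II, was 3.27-fold higher than in conventional CD4 T cells, yet stood at 123 CPM against 169 CPM in CD8 T cells (ratio 0.726). Tff1 kept a ratio of 2.46, at 274 CPM against 111 CPM in CD8 T cells. None of 14 cytotoxic genes was at least 2-fold higher than in CD8 T cells and 3 were lower, with a median log2 ratio of -0.78. The lowest genes in this comparison were globins, with Hba-a2 at 34.7 CPM in Foxp3/Ikzf2 T cells against 292 CPM in CD8 T cells. The 5 erythrocyte markers summed to 234 and 1529 CPM, yet at least 3 UMI of them were held by 8.13% and 6.14% of the cells. Their part in the count of lower genes was not tested. Against all 3480 other T cells as 1 group, 313 of 10663 tested genes were at least 2-fold higher (2.94%) and 874 at least 2-fold lower (8.20%), while the alveolar macrophage markers summed to 667 CPM in Foxp3/Ikzf2 T cells and 2476 CPM in the other T cells.

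The 193 cells with a Foxp3 UMI and the 176 cells chosen by Ikzf2 and Tnfrsf4 alone differed by less than 2-fold in most identity and tissue genes tested; Xcl1, Ccl1 and Il17a were lower in the Foxp3-bearing cells, and Ccl3 and Osm higher. Of 6063 genes with at least 20 UMI in the pair, 113 were at least 2-fold higher in the Foxp3-bearing cells (1.86%) and 141 at least 2-fold lower (2.33%). Ctla4 had a ratio of 1.03 (0.850 to 1.26), Tnfrsf18 of 1.01 (0.848 to 1.20), Ikzf4 of 1.06 (0.698 to 1.61), Klrg1 of 1.08 (0.717 to 1.62) and Tff1 of 0.902 (0.740 to 1.10). Of 14 identity genes 1 was higher (Entpd1, 2.37-fold on 17 against 7 UMI, 0.934 to 6.76), and of 24 tissue genes none passed 2-fold either way. Xcl1, the chemokine that draws cross-presenting dendritic cells, stood at 50.1 CPM in Foxp3-bearing cells against 496 CPM in cells chosen by Ikzf2 and Tnfrsf4 alone (ratio 0.101, 0.0704 to 0.141). Ccl1, a ligand of CCR8, stood at 68.5 CPM against 385 CPM (ratio 0.178, 0.130 to 0.240). Both chemokines were uneven between cells: 1 cell held 124 of the 405 Xcl1 UMI and 1 held 119 of the 337 Ccl1 UMI of all Foxp3/Ikzf2 T cells. Il17a was also lower in Foxp3-bearing cells, at 55.4 CPM against 124 CPM (ratio 0.445, 0.302 to 0.648). Ccl3, a chemokine of the MIP-1 family, stood at 204 CPM against 86.5 CPM (ratio 2.36, 1.76 to 3.21), and Osm, the cytokine oncostatin M, at 56.7 CPM against 18.9 CPM (interval of the ratio 1.61 to 5.93). These made 2 of 22 cytokine and chemokine genes higher and 3 lower. Of the 155 Ccl3 UMI in Foxp3-bearing cells, 31 lay in the 130 cells without a Cd8a or Cd8b1 UMI. Those cells stood at 61.2 CPM of Ccl3, below the 86.5 CPM of the cells chosen by Ikzf2 and Tnfrsf4 alone. Of 12 cytotoxic genes 3 were lower (Klrc1, Klre1 and Fasl) and none higher, with a median log2 ratio of -0.40. S100a9, a neutrophil gene, was 2.16-fold higher, and the 6 neutrophil markers summed to 1732 CPM in Foxp3-bearing cells and 943 CPM in the others; the part of neutrophil RNA was not tested.

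The 70 cells that met both criteria carried more Il2ra, Tnfrsf9, Tnfrsf18 and Areg than those chosen by Foxp3 alone. Il2ra stood at 271 CPM in them against 112 CPM in the 123 cells chosen by Foxp3 alone (ratio 2.42, 1.69 to 3.51). Tnfrsf9 stood at 301 against 121 CPM (2.49, 1.76 to 3.55), Tnfrsf18 at 512 against 248 CPM (2.07, 1.61 to 2.66), and Areg at 185 against 92.1 CPM (2.01, 1.32 to 3.07). Gzmb did not share this order, at 76.0 CPM in cells that met both criteria and 107 CPM in cells chosen by Foxp3 alone (0.707, 0.411 to 1.18). Cells chosen by Foxp3 alone nonetheless exceeded conventional CD4 T cells in Il2ra (4.61-fold, 2.70 to 8.17), Tnfrsf9 (5.53-fold, 3.20 to 10.0) and Tff1 (6.58-fold, 4.06 to 11.1). The cells chosen by Ikzf2 and Tnfrsf4 alone did so as well, by 5.68-fold for Il2ra (3.49 to 9.69), 10.4-fold for Tnfrsf9 (6.38 to 18.0) and 10.8-fold for Tff1 (6.94 to 17.6).

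Nkg7, Ccl1 and Xcl1 were higher in the Foxp3/Ikzf2 T cells with a Cd8a or Cd8b1 UMI than in those without, whichever gene had chosen them, while Tnfrsf9, Il2ra and Gzmb differed by less than 2-fold. This split was made after the values were seen. Nkg7, a granule protein of killer cells, stood at 284 CPM in Foxp3-bearing cells without a Cd8 UMI and 1640 CPM in those with one, and at 298 and 1383 CPM in the matching cells chosen by Ikzf2 and Tnfrsf4 alone. Ccl1 stood at 7.89 and 191 CPM in Foxp3-bearing cells, and at 5.67 and 730 CPM in the cells chosen by Ikzf2 and Tnfrsf4. Xcl1 followed with 17.8 and 115 CPM, and 39.7 and 911 CPM. Tnfrsf9, in contrast, stood at 205 and 167 CPM in Foxp3-bearing cells without and with a Cd8 UMI (ratio 1.23, 0.852 to 1.81), and at 216 and 237 CPM in the others (0.908, 0.661 to 1.24). Il2ra stood at 176 and 175 CPM, and at 145 and 132 CPM. Gzmb, though a cytotoxic gene, stood at 86.8 and 111 CPM (ratio 0.781, 0.475 to 1.30), and at 51.1 and 49.0 CPM (1.04, 0.516 to 2.10). Foxp3/Ikzf2 T cells without a Cd8 UMI had a median of 3293 UMI per cell and those with one 3900; whether some are 2 cells in 1 droplet was not tested, and no doublets were removed.

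**Figure D4:**
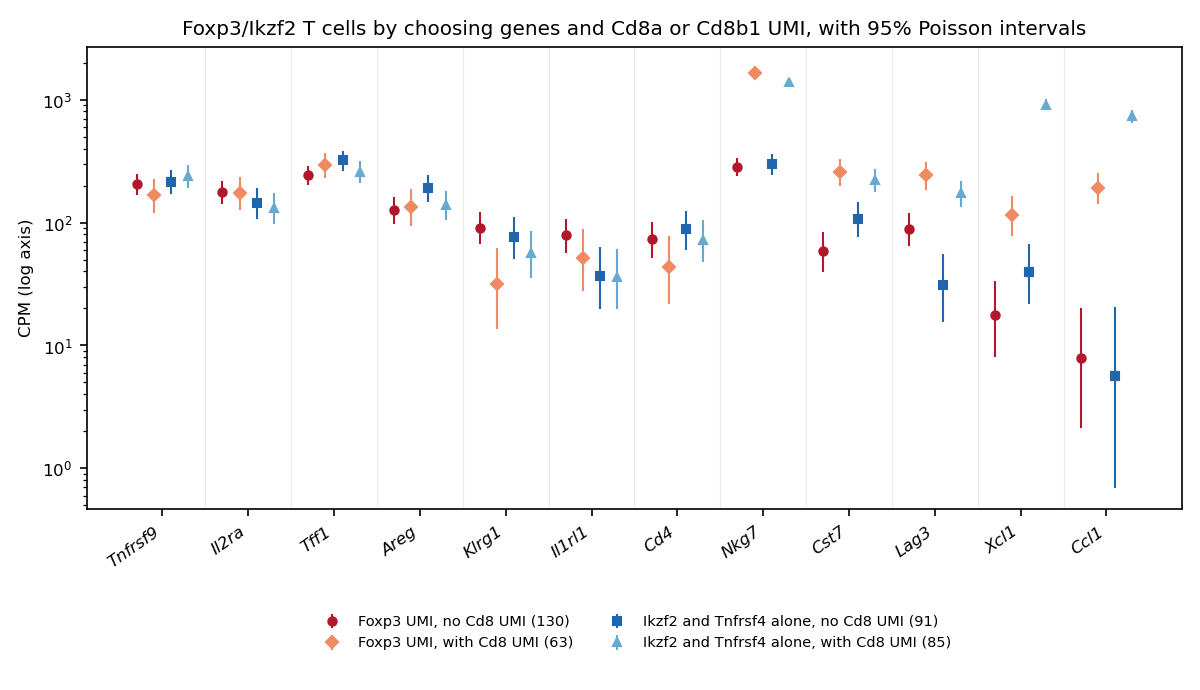
CPM on a log axis in 4 kinds of Foxp3/Ikzf2 T cell, parted by the gene that chose them and by a UMI of Cd8a or Cd8b1; bars are exact 95% Poisson intervals and cell numbers stand in the legend. Tnfrsf9, Il2ra, Tff1 and Areg differ by less than 2-fold between cells without and with a Cd8 UMI, while Nkg7, Cst7, Lag3, Xcl1 and Ccl1 lie higher in the cells with a Cd8 UMI.

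The differences from conventional CD4 T cells were therefore also read in the 130 Foxp3-bearing cells without a Cd8 UMI. Of 4407 genes tested, 105 were at least 2-fold higher (2.38%) and 122 at least 2-fold lower (2.77%). Identity genes were higher in 6 of 12, mediators in 6 of 14 and tissue genes in 10 of 22, with none lower and median log2 ratios of 0.96, 0.59 and 0.97, and 9 of 24 cell cycle genes were higher. Tff1 was 9.10-fold higher (5.75 to 15.0), Tnfrsf9 9.40-fold (5.67 to 16.5), Penk 10.5-fold (4.68 to 27.5), Il2ra 7.24-fold (4.42 to 12.4), Gzmb 8.95-fold (4.17 to 22.0) and Klrg1 5.76-fold (3.06 to 11.6). Of the 7 cytotoxic genes that still reached 30 UMI in the pair, only Gzmb was at least 2-fold higher, beside 6 of 11 for all Foxp3/Ikzf2 T cells. The counts thus cover different sets of genes. Klre1, with 4 UMI in all Foxp3-bearing cells and 2 in conventional CD4 T cells, was not tested here. In that wider group Cst7, Nkg7 and Klrd1 had been 3.26-fold, 2.11-fold and 2.65-fold higher; here their ratios were 1.32, 0.749 and 1.10. Xcl1 and Ccl1, 8.91-fold and 5.79-fold higher in all Foxp3/Ikzf2 T cells, had ratios of 0.586 and 0.203 here. Ccl3 was lower here, at 61.2 CPM against 179 CPM in conventional CD4 T cells (ratio 0.341, 0.224 to 0.505). Lag3 stood at 2.36-fold here, and at 1.73-fold when all 221 cells without a Cd8 UMI were taken.

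Il1rl1 was a sparse transcript that, among the T cell groups and B cells compared, was most abundant in the Foxp3-bearing cells. It had 80 UMI in 57 of the 369 Foxp3/Ikzf2 T cells (53.4 CPM, interval 42.3 to 66.4), with at most 3 in 1 cell. By group its level was 79.3 CPM in cells that met both criteria, 63.6 CPM in cells chosen by Foxp3 alone, 36.5 CPM in cells chosen by Ikzf2 and Tnfrsf4 alone, 19.4 CPM in conventional CD4 T cells, 5.77 CPM in CD8 T cells and 3.22 CPM in B cells. The first pair did not differ beyond counting error (ratio 1.25, 0.695 to 2.22), nor did cells chosen by Ikzf2 and Tnfrsf4 alone from conventional CD4 T cells (1.88, 0.977 to 3.74). Foxp3-bearing cells exceeded those chosen by Ikzf2 and Tnfrsf4 alone by 1.92-fold (1.18 to 3.17), and all Foxp3/Ikzf2 T cells exceeded conventional CD4 T cells by 2.75-fold (1.59 to 5.04). A UMI of Il1rl1 was found in 15.4% of Foxp3/Ikzf2 T cells, 4.58% of conventional CD4 T cells and 1.20% of B cells, and in 10.0%, 3.33% and 0.450% after thinning. The Foxp3/Ikzf2 T cells, 4.96% of the immune cells of the library, held 32.0% of its 250 immune Il1rl1 UMI (26.3 to 38.2). That is 80 UMI, beside 104 in the 3480 other T cells. Of 14 tested genes of the IL-33 receptor pathway only Il1rl1 was at least 2-fold higher than in conventional CD4 T cells, and the list median log2 ratio was 0.20. Nfkbia, an inhibitor and target of NF-kappa-B, had 1.37-fold (1.22 to 1.52) the level in conventional CD4 T cells, but a ratio of 0.659 in the 10 Foxp3/Ikzf2 T cells with fewer than 3 UMI of another lineage. Myd88, the adaptor, had 1.13-fold (0.646 to 2.03). Il1rap, the coreceptor, had 10 UMI in Foxp3/Ikzf2 T cells and 9 in conventional CD4 T cells, too few for a ratio.

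Within the Foxp3/Ikzf2 T cells, the 57 with an Il1rl1 UMI carried more Areg, Prdm1 and Klrg1 than the 312 without. Their median depths were 3519 and 3442 UMI. Of 6062 genes with at least 20 UMI in the pair, 208 were at least 2-fold higher with Il1rl1 (3.43%) and 439 at least 2-fold lower (7.24%). The groups held 230266 and 1268672 UMI, so calls near 20 UMI rest on few molecules in the cells with Il1rl1. With a 0 set to 3 counts, Ctsk on 0 against 61 UMI had a ratio of 0.271, and Riok3 on 1 against 61 UMI 0.0903. These counts were not tried at another threshold, and the part of such sparse genes in them was not tested. Areg stood at 300 CPM in cells with an Il1rl1 UMI against 118 CPM in cells without (ratio 2.53, 1.88 to 3.39). Prdm1, the gene of the effector factor Blimp-1, stood at 130 against 41.0 CPM (3.18, 1.96 to 5.08), beside 63.5 CPM in B cells. Klrg1 was 2.06-fold higher with Il1rl1 (1.28 to 3.21). A UMI of Areg was found in 40.4% of cells with Il1rl1 (27.6 to 54.2) and 27.9% of cells without (23.0 to 33.2), intervals that overlap. Klrg1 was read in 36.8% of cells with an Il1rl1 UMI (24.4 to 50.7) and 12.5% of cells without (9.04 to 16.7), and Il2ra in 52.6% (39.0 to 66.0) and 32.1% (26.9 to 37.5). Tff1, Penk and Gata3 did not differ beyond counting error, with ratios of 0.982, 1.31 and 0.963. A Foxp3 UMI was present in 37 of 57 cells with Il1rl1 (51.1 to 77.1%) and 156 of 312 cells without (44.3 to 55.7%), with overlapping intervals. Cell cycle genes ran the other way, with 4 of 28 at least 2-fold lower with Il1rl1, none higher, and a list median log2 ratio of -0.35.

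Summed transcripts of other cell types differed across this split, while the shares of cells that held them differed less for most lists. Hdc, the histamine-forming enzyme, had the highest lower bound of the ratio, at 135 CPM in cells with an Il1rl1 UMI against 26.0 CPM in cells without (5.18-fold, 3.07 to 8.72); 1 cell held 10 of its 31 UMI, and conventional CD4 T cells held 70.3 CPM of it. Cd209a, a dendritic cell lectin, stood at 82.5 against 26.8 CPM, with the 7 dendritic cell markers at 143 and 72.5 CPM. At least 3 UMI of those dendritic cell markers were held by 7.02% of cells with Il1rl1 (4 cells) and 2.24% without (7 cells). The 6 neutrophil markers summed to 2019 CPM with Il1rl1 and 1219 CPM without. At least 3 UMI of them were held by 28.1% and 26.6% of the cells. Lyz2 (499 against 1409 CPM), Chil3 (109 against 507 CPM) and Jchain (964 against 2773 CPM) lay lower. The alveolar macrophage markers summed to 252 and 743 CPM, with at least 3 UMI in 7.02% (4 cells) and 9.62% (30 cells). For the plasma cell markers, which include Jchain, those shares were 42.1% and 45.5%. The 6 markers of type 2 innate lymphoid cells, another ST2-bearing cell, summed to 73.8 and 33.1 CPM, and those of mast cells and basophils to 4.34 and 6.31 CPM. The part of these transcripts in the split was not tested.

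**Figure D5:**
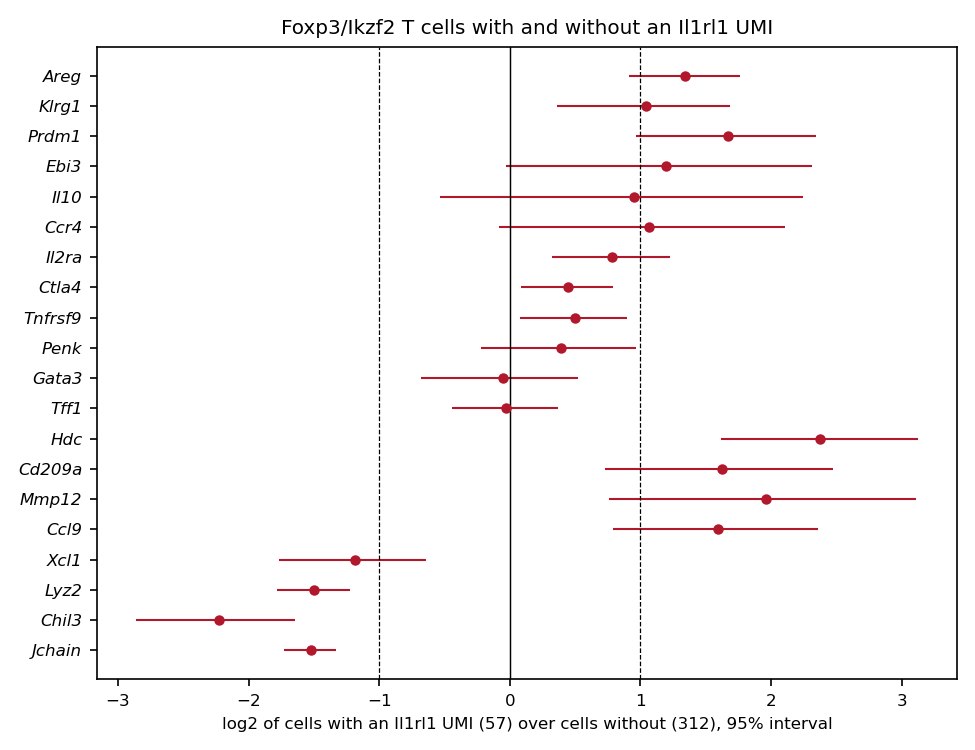
Log2 ratio with its exact 95% interval for 20 genes, Foxp3/Ikzf2 T cells with an Il1rl1 UMI (57) over those without (312); the solid line marks equal levels and dashed lines 2-fold. Areg, Klrg1 and Prdm1 lie at or above 2-fold with intervals above equality, Gata3 and Tff1 lie at equality, and Xcl1, Lyz2, Chil3 and Jchain lie below 2-fold lower.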

How the data were processed

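Per the series design text, lung tumours were dissociated, parted by CD45 beads and run on droplet 3′ chemistry. Cell Ranger 1.1.0 and mm10 are named for alignment and UMI collapsing. The authors deposited 1 table of raw UMI counts, 17790 genes by 15389 cells, with a table of cell classes; these counts were used as deposited. Genes read in fewer than 3 cells are not listed. T cell receptor constant genes are not analysed here. The 369 cells had 2211 to 10932 UMI, 1498938 in all.

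Counts were summed per group and scaled to a total of 1000000 (CPM). Poisson intervals of levels, Clopper-Pearson intervals of shares and conditional binomial intervals of ratios are exact, at 95%, and cover counting error only (scipy 1.17.1). A gene was tested with 30 UMI in a pair (20 within the Foxp3/Ikzf2 T cells) and called at 2-fold; a 0 was set to 3 counts. The ratio and its interval were tried on sums drawn from the Poisson model that the interval assumes. Such sums lack the unevenness between cells seen for Xcl1 and Ccl1, so the trial cannot check the intervals against it. The cells, gene lists and tests were chosen with earlier results of these data known. Genes were named as those with the highest lower or lowest upper bound of the ratio, with the members of 4 lists. B cells held at least 3 UMI of Cd79a and Cd79b and none of Cd3. No doublets were removed. Thinning drew 2000 UMI per cell.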

Additional observations from a re-analysis of the deposited data

How the results depend on the processing

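No paired analysis was possible because each fraction is 1 library, which also leaves no replicate to leave out. Counts are given as higher and lower in Foxp3/Ikzf2 T cells, of the genes tested, a number that itself moved with the setting. Over conventional CD4 T cells, 207 and 112 of 6148 were reported. The counts were 672 and 430 of 9263 at 10 UMI in the pair, and 50 and 24 of 2613 at 100 UMI. With Foxp3 UMI alone as the rule they were 114 and 112 of 4958. With Foxp3 beside Ikzf2, Tnfrsf4 or Ctla4 they were 124 and 134 of 4848, and after thinning 146 and 64 of 4147. Over CD8 T cells (242 and 347 of 9122 as reported) they were 515 and 753 of 11270 at 10 UMI. At 100 UMI they were 87 and 89 of 5542. With Foxp3 UMI alone they were 313 and 537 of 8828. Foxp3 beside another marker gave 320 and 617 of 8800, and leaving out mitochondrial and ribosomal protein genes 178 and 446 of 9009. Over all other T cells (313 and 874 of 10663 as reported) they were 730 and 1086 of 12445 at 10 UMI. At 100 UMI they were 115 and 443 of 7930. Leaving out cells with 3 UMI of another lineage left 10 Foxp3/Ikzf2 T cells. The counts were then 13 and 5 of 315 genes over conventional CD4 T cells. They were 124 and 104 of 1164 over CD8 T cells, and 212 and 195 of 1999 over all other T cells. With at least 3 Cd3 UMI, an alternative chosen after seeing the data, 243 and 556 of 9841 genes stood apart from the other T cells. The share of T cells was 5.01% with Foxp3 UMI alone, 6.39% with Ikzf2 and Tnfrsf4, 4.62% with Foxp3 beside another marker, 10.9% with 2 Cd3 UMI and 5.97% on thinned counts. Il1rl1 stood at 86.7 CPM without mitochondrial and ribosomal protein genes, 69.9 CPM with Foxp3 UMI alone and 69.0 CPM with Foxp3 beside another marker.

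Of 946 values for 104 named genes, 886 stayed within the interval of the reported ratio and 58 left it without a called gene turning round. In the other 2, genes called at 2-fold changed direction: Ccl1 (ratio 0.180) and Xcl1 (ratio 0.883) over conventional CD4 T cells, in the 221 cells without a Cd8a or Cd8b1 UMI, a split also chosen after seeing the data. Among genes short of 2-fold, 3 of the 58 crossed equality: Nfkbia (0.659 against 1.37 as reported) without cells with 3 UMI of another lineage, and Mapk14 (1.34 against 0.688) and Cd44 (1.03 against 0.839) with at least 3 Cd3 UMI. A further 13 crossed it within their interval. The cause of these shifts was not tested. A membership that rests on 1 or 2 UMI cannot be told apart from free RNA in a single cell, and with 1 library no difference has a replicate check.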
